A study of Mus musculus with 6 samples.

Results

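The 9 genes described here mark excitatory (glutamatergic) neurons of the cerebral cortex: Slc17a7, Slc17a6, Neurod6, Neurod2, Tbr1, Cux2, Rorb, Fezf2 and Bcl11b. They were chosen by name, as known markers, with earlier results of these data already known. All 9 were among the 31276 gene symbols of the count table, and all 9 were among the 16592 genes that passed the filter on low counts. Polyadenylated RNA from brains of C57BL/6 mice at postnatal day 14 was sequenced in 3 wild-type samples (WT) and in 3 samples of the genotype PRMT5 olig2cre KO (KO). In KO, Prmt5, which encodes an arginine methyltransferase, was targeted by Cre recombinase under control of Olig2. Olig2 is transcribed in the oligodendrocyte lineage and, in the embryo, in progenitors of the ventral nervous system, so most cortical excitatory neurons lie outside the targeted lineage. The labels give the WT alleles only as wild-type and do not say that each sample is its own animal. The p-values therefore reflect differences among these libraries, which may be technical.

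Excitatory neurons of the cortex release glutamate, which vesicular transporters load into synaptic vesicles. In the forebrain, VGLUT1 (Slc17a7) serves mainly cortical and hippocampal neurons, and granule cells of the cerebellum use it too. VGLUT2 (Slc17a6) serves mainly thalamus, midbrain and brainstem. NeuroD factors act as these neurons differentiate. A further set of transcription factors gives neurons of the upper layers (Cux2, Rorb) and deep layers (Tbr1, Fezf2, Bcl11b) their identities.

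The libraries held 15089140 to 16872925 counts. Prmt5 had 91.0 ± 0.751 CPM (counts per 1000000 of the TMM-scaled library total) in WT, against 72.7 ± 7.66 CPM in KO (SD, n = 3), and its edgeR adjusted p was 0.232 (with the replicate block, 0.0379). Mbp, a myelin gene, fell in KO at a log2 fold change of -2.74 (edgeR adjusted p 0.000201). The libraries also differed in transcripts of the cerebellum. Gabra6, which encodes a GABA receptor subunit of granule cells, reached 63.8 CPM in WT replicate 1, 80.0 in KO replicate 1 and 22.1 in KO replicate 3, and had 0 counts in WT replicates 2 and 3 and KO replicate 2. The first 3 are called the libraries with cerebellar transcripts below. The same 3 libraries also held RNA of hindbrain Hox genes, at a summed level of 15.4, 23.7 and 1.91 CPM for 9 genes, against 0 in the other 3. Some of the 9 genes are transcribed in cerebellum and brainstem, so the genotype values with a term for cerebellar transcripts are given as well. In whole tissue, fewer cells of a type and less RNA per cell cannot be told apart.

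Several of the 9 genes have close relatives, whose reads could be shared if stretches as long as a read were identical. Among 11 pairs of related coding sequences (GENCODE M21), the longest identical run was 11 to 25 bases, against reads of 150 bases. The stretches around that run are shown for the pair of transporters and for Cux2 with its relative Cux1, with the identical run in capitals and positions counted from the first base of the start codon. The transporter stretches span coding bases 229 to 279 of Slc17a7 and 253 to 303 of Slc17a6, which share 21 bases, and the Cux stretches coding bases 1499 to 1551 of Cux2 and 1679 to 1731 of Cux1, which share 23.
Slc17a7: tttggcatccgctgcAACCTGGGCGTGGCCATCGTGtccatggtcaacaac
Slc17a6: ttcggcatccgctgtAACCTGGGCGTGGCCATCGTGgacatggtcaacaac
Cux2: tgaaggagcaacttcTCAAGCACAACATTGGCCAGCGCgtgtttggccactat
Cux1: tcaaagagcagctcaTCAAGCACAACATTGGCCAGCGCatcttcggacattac
Exonic bases outside the coding sequence were not compared between relatives, nor were runs with mismatches, so sharing of reads there was not tested. No annotated neighbour in GENCODE M21 shared an exonic base with any of the 9 genes.

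Per length of exon, the 9 genes spanned a wide range of levels in brain RNA. Levels per length are given as RPKM, that is as CPM per kilobase of exonic length. Slc17a7 was the highest, at a mean of 209.7 RPKM over the 6 libraries (169.8 to 248.6). Neurod6 followed at 55.5 (45.7 to 65.8). Next came Neurod2 at 21.8, Slc17a6 at 20.6, Tbr1 at 17.9, Fezf2 at 12.3 and Bcl11b at 10.9 RPKM, and each of these overlapped its neighbour in the order over libraries. Cux2 at 4.81 and Rorb at 3.2 RPKM were the lowest, and their ranges overlapped neither each other nor Bcl11b.

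Between genotypes, Cux2 was the only 1 of the 9 genes that separated the groups. A count of 1 of 9 is near the shares of all tested genes, given below, without overlap or with an unadjusted p under 0.05. The shares called by DESeq2 and with the replicate block are lower, and 1 gene is too few to set against them. None of the 9 genes was called in edgeR's quasi-likelihood test (Benjamini-Hochberg adjusted p under 0.05 over all genes tested), against a background of 1.2% of tested genes (0.958% lower and 0.241% higher in KO). One of them, Cux2, had an unadjusted p under 0.05, as did 9.67% of tested genes. Limma-voom called 0 of the 9. DESeq2 called 1 (1.89% of genes with an adjusted p), and edgeR with the replicate number as a block called 1 (3.41%, and 2.38% in the lower direction); in both it was Cux2. For 8 of the 9 genes the WT and KO ranges overlapped, and Cux2 was lower in every KO library, while 7.99% of tested genes were lower in KO with no overlap and 16% did not overlap in either direction. The median log2 fold change of the 9 genes was -0.09, beside 0.01 over all tested genes.

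**Figure D1:**
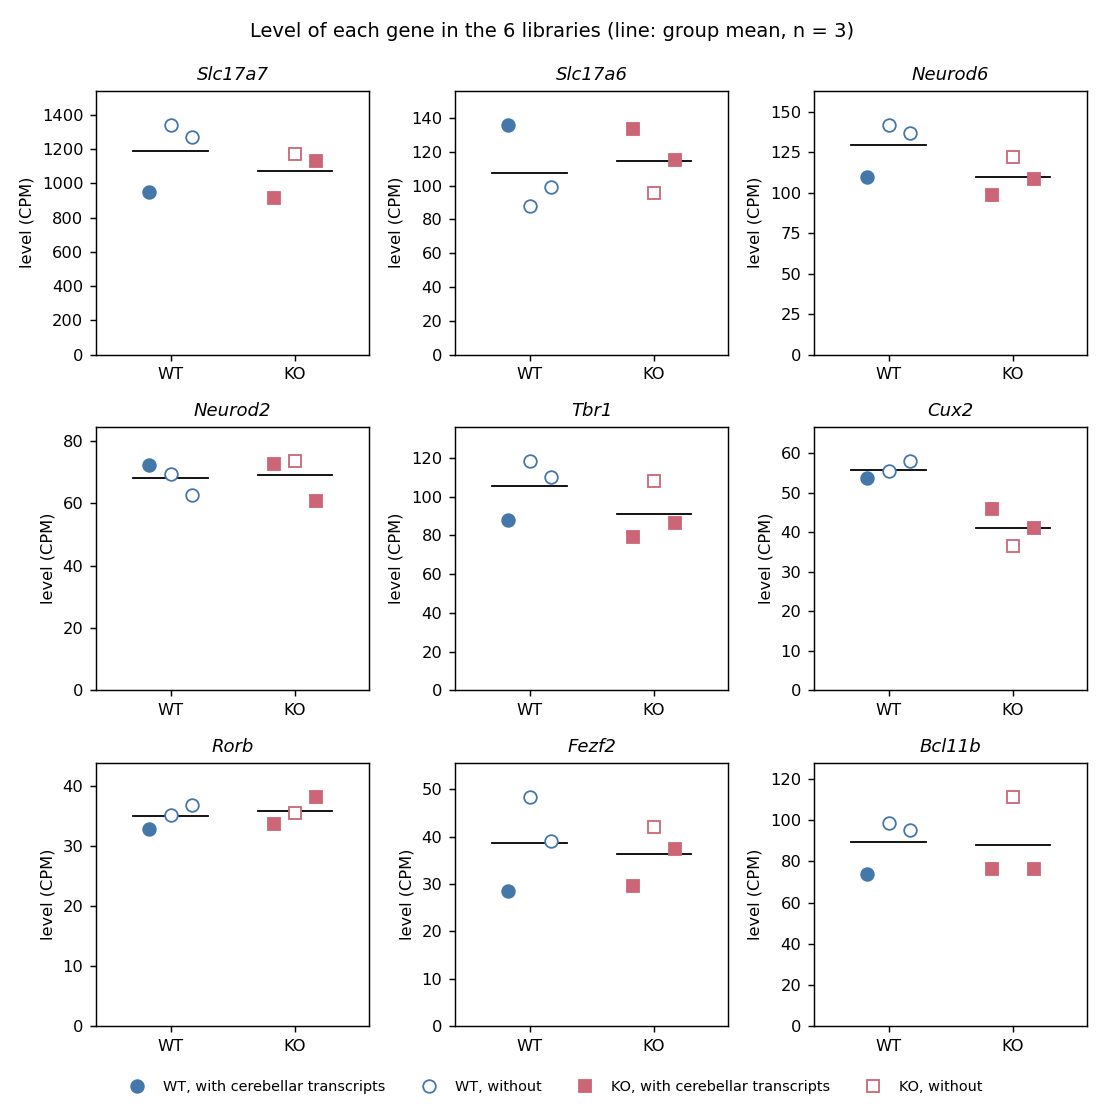
Level of each of the 9 genes in CPM (vertical axis from 0) for the 3 WT and 3 KO libraries, with the group mean as a line; filled points are libraries with cerebellar transcripts and open points those without. The KO points of Cux2 (36.5 to 45.9 CPM) lie below its WT points (53.7 to 58.0 CPM), and for Bcl11b the filled points (73.8 to 76.3 CPM) lie below the open points (95.003 to 111.2 CPM) in both groups.

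Cux2 (chr5:121856366-122050102 on mm10, minus strand) encodes a homeobox factor of upper-layer neurons. The WT replicates 1 to 3 had 53.7, 55.6 and 58.0 CPM, from 860, 822 and 964 counts. The KO replicates, in the same order, had 45.9, 36.5 and 41.2 CPM, from 755, 579 and 648 counts. All KO values were below all WT values, the lowest being KO replicate 2. The WT mean was 55.8 ± 2.15 CPM and the KO mean 41.2 ± 4.72 CPM (SD, n = 3), a KO to WT ratio of 0.739. The log2 fold change was -0.44 (SE 0.106, 95% interval -0.67 to -0.20), with an edgeR adjusted p of 0.1102, which missed the threshold. With the replicate block the value was -0.44 and the edgeR adjusted p 0.0131, and DESeq2 gave an adjusted p of 0.0333. In same-numbered pairs the differences were -0.23, -0.61 and -0.49, and the lack of overlap already fixed their sign.

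The Cux2 difference was also fitted in subsets of the libraries. Among the libraries with cerebellar transcripts (KO replicates 1 and 3 against WT replicate 1) it was -0.31 with an edgeR adjusted p of 1. Among those without (KO replicate 2 against WT replicates 2 and 3) it was -0.64 with an edgeR adjusted p of 4.3e-05. Each of these fits has a lone sample in 1 group, which is assumed to vary like the others. The difference between the sets, tested as an interaction in edgeR with 2 residual degrees of freedom, had an unadjusted p of 0.163 for Cux2, so the sizes were not shown to differ. With a term for cerebellar transcripts in the fit of all libraries the value was -0.47 (edgeR adjusted p 0.0905). Without KO replicate 1 it was -0.52, and Cux2 was called (edgeR adjusted p 0.0319); without any other library it was not called, at -0.36 to -0.46. Cux2 is long, with 10082 exonic bases. With offsets adjusted for exonic length, the edgeR adjusted p of Cux2 was 0.202 at a value of -0.36, and 0.0372 with the block as well.

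**Figure D2:**
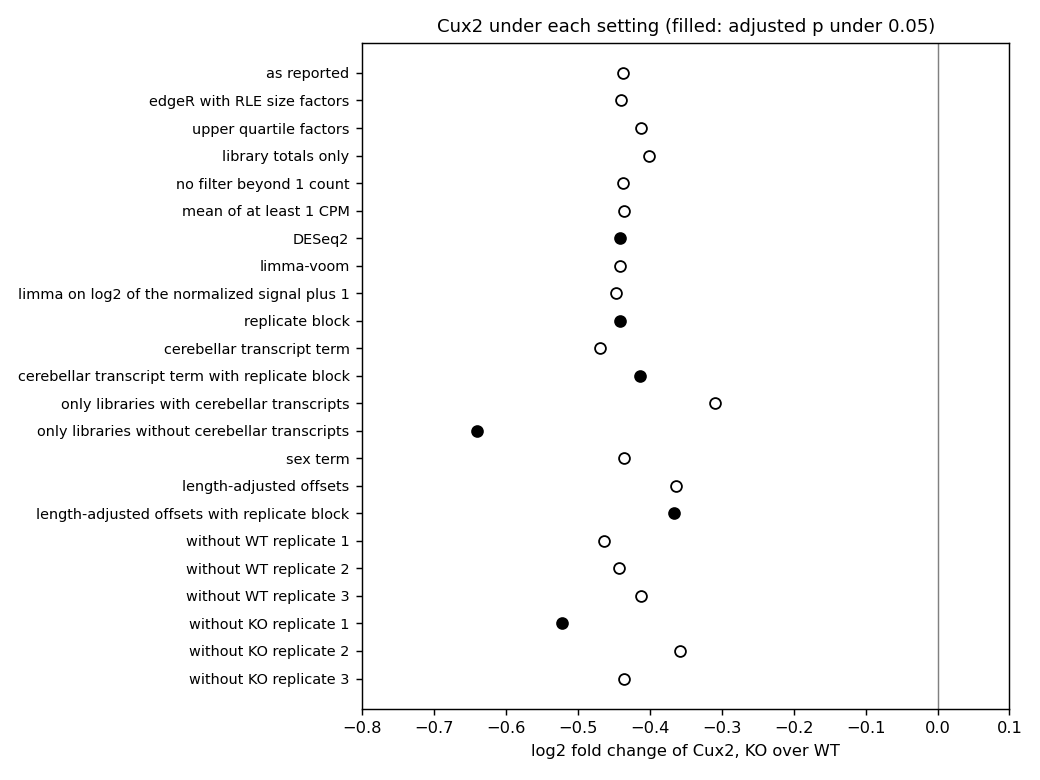
The log2 fold change of Cux2, KO over WT (horizontal axis), under each of the 23 settings listed on the vertical axis; filled points mark an adjusted p under 0.05. Every value lies below 0, from -0.64 in the libraries without cerebellar transcripts to -0.31 in those with them. A call was given by 6 of the settings. Among these is the fit of the libraries without cerebellar transcripts, which has a lone KO library.

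Rorb (chr19:18930605-19111196), a nuclear receptor gene of the upper layers, did not follow Cux2. It stood at 32.9, 35.3 and 36.9 CPM in WT and 33.7, 35.6 and 38.2 CPM in KO. The groups overlapped, and the log2 fold change was 0.03 (95% interval -0.20 to 0.27, edgeR adjusted p 0.942). Over the 6 libraries it ran from 2.97 to 3.45 RPKM.

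Tbr1 (chr2:61802930-61814114), a T-box factor gene of deep-layer neurons that project to the thalamus, stood at 88.0, 118.4 and 110.1 CPM in WT and at 79.1, 108.4 and 86.3 CPM in KO. The groups overlapped, since WT replicate 1 was below KO replicate 2, although each KO library was below the WT library of the same number. Its log2 fold change was -0.21 (95% interval -0.51 to 0.09, edgeR adjusted p 0.661). Fezf2 (chr14:12342094-12348189), which directs the fate of neurons that project below the cortex, stood at 28.5, 48.4 and 39.1 CPM in WT and 29.7, 42.2 and 37.4 CPM in KO. Both groups had their lowest value in replicate 1. The log2 fold change of Fezf2 was -0.09 (95% interval -0.50 to 0.32, edgeR adjusted p 0.913).

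Bcl11b (chr12:107910403-108003602) encodes CTIP2, a zinc finger factor of the same projection neurons and also of striatal spiny neurons. It stood at 73.8, 98.8 and 95.003 CPM in WT and 76.3, 111.2 and 76.2 CPM in KO. The groups overlapped, with KO replicate 2 the highest of all and WT replicate 1 the lowest. The log2 fold change was -0.02 (95% interval -0.37 to 0.33, edgeR adjusted p 0.9751), and its sign turned under other scalings (0.01 with library totals only).

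Neurod6 (chr6:55677822-55681263) encodes a bHLH factor largely restricted to forebrain excitatory neurons. It stood at 109.4, 141.5 and 136.6 CPM in WT and at 98.3, 122.0 and 108.6 CPM in KO. WT replicate 1 lay within the KO range, and each KO library was below the WT library of the same number. The log2 fold change was -0.24 (95% interval -0.50 to 0.02, edgeR adjusted p 0.553, and 0.135 with the replicate block). With length-adjusted offsets and the block together it was -0.32, and Neurod6 was called (edgeR adjusted p 0.0349), which it was not with those offsets alone (-0.32, edgeR adjusted p 0.352). Neurod2 (chr11:98325415-98329648), a related factor that cerebellar granule cells also use, stood at 72.3, 69.3 and 62.6 CPM in WT and 72.7, 73.5 and 60.8 CPM in KO. Its groups overlapped throughout, at a log2 fold change of 0.02 (95% interval -0.21 to 0.25, edgeR adjusted p 0.963).

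Slc17a7 (chr7:45163949-45176142) stood at 949.4, 1340 and 1274 CPM in WT and at 915.7, 1173 and 1132 CPM in KO. The lowest value of each group was replicate 1, and the groups overlapped. Its log2 fold change was -0.15 (95% interval -0.46 to 0.17, edgeR adjusted p 0.789). Slc17a6 (chr7:51622006-51671119) stood at 135.8, 87.7 and 98.97 CPM in WT and 133.4, 95.7 and 115.4 CPM in KO. Here replicate 1 was the highest in each group, the reverse of Slc17a7. Its log2 fold change was 0.10 (95% interval -0.26 to 0.45, edgeR adjusted p 0.887), or -0.05 with the term for cerebellar transcripts. That term moved other genotype values too: Slc17a7 stood at -0.02, Tbr1 at -0.08, Neurod6 at -0.14, Fezf2 at 0.09 and Bcl11b at 0.12 with it. Neurod2 at 0.02 and Rorb at 0.05 stayed near 0. Apart from Cux2, the edgeR adjusted p with the term ran from 0.641 for Neurod6 to 0.963 for Neurod2.

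**Figure D3:**
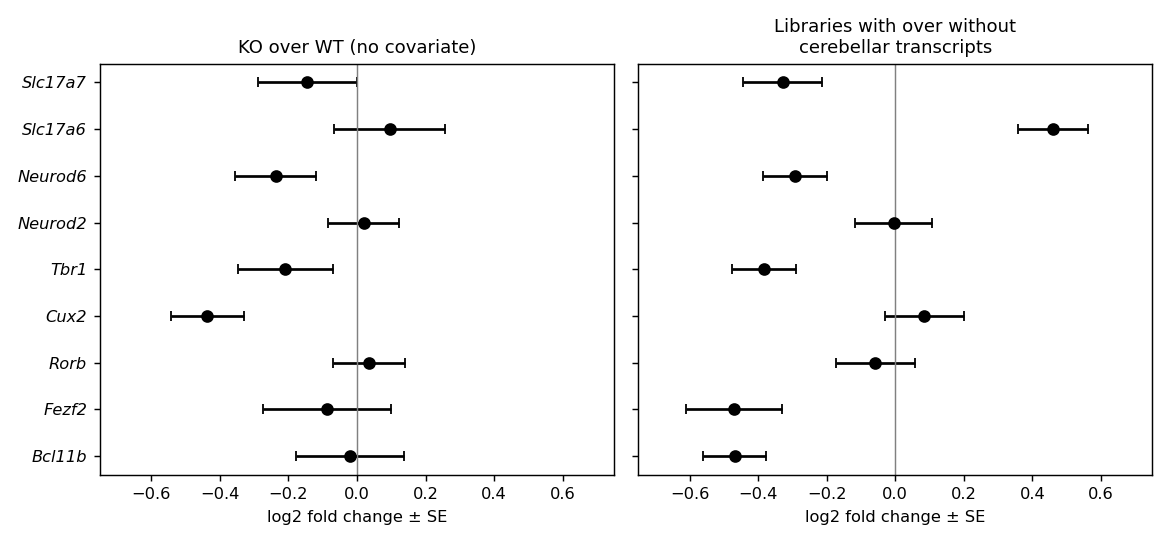
Log2 fold change with its SE (horizontal axes) for the 9 genes, for KO over WT at the left and for libraries with over without cerebellar transcripts, with genotype in the model, at the right. Cux2 lies lowest at the left (-0.44) and near 0 at the right (0.08), while Slc17a6 lies highest at the right (0.46) and 5 genes lie between -0.29 and -0.47 there.

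The levels of 6 of the 9 genes separated the libraries with cerebellar transcripts from those without. Slc17a7, Neurod6, Tbr1, Fezf2 and Bcl11b were lower in all 3 libraries with cerebellar transcripts than in any of the 3 without, and Slc17a6 was higher. Over all tested genes, 5.97% were lower without overlap and 6.44% higher, 12.4% in all. Bcl11b ran from 73.8 to 76.3 CPM in the libraries with these transcripts and from 95.003 to 111.2 in those without. Tbr1 ran from 79.1 to 88.0 CPM with them and from 108.4 to 118.4 without. Slc17a6 ran from 115.4 to 135.8 CPM with them and from 87.7 to 98.97 without. The same separation held in the ranges of Neurod6 (98.3 to 109.4 and 122.0 to 141.5 CPM), Fezf2 (28.5 to 37.4 and 39.1 to 48.4 CPM) and Slc17a7 (915.7 to 1132 and 1173 to 1340 CPM). Neurod2, Cux2 and Rorb overlapped between the sets.

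With genotype in the model, 1 of the 9 genes was called between the 2 sets of libraries by edgeR (0.729% of tested genes, and 0.108% in the lower direction), and 6 had an unadjusted p under 0.05 (8.53%). The gene called was Bcl11b, lower with cerebellar transcripts at a log2 fold change of -0.47 (SE 0.0926, edgeR adjusted p 0.0417). Slc17a6 had a value of 0.46 (SE 0.102, edgeR adjusted p 0.0784), Tbr1 -0.38 (0.121), Fezf2 -0.47 (0.227), Neurod6 -0.29 (0.293) and Slc17a7 -0.33 (0.363), with edgeR adjusted p in brackets. KO replicate 3, with the lowest Gabra6 level of the 3, was the library whose omission raised the calls. Without it all 6 genes were called, at edgeR adjusted p of 0.000909 for Slc17a6 to 0.0192 for Neurod6. In that fit 799 of all 16850 genes tested were called, 294 of them lower, against 121 of 16592 with all libraries. Leaving out any of the other 5 libraries left none of the 9 called: the edgeR adjusted p of Bcl11b, for WT replicates 1 to 3 and then KO replicates 1 and 2 omitted, was 0.447, 0.270, 0.169, 0.0672 and 0.877. With library totals as the only scaling Bcl11b was not called (edgeR adjusted p 0.0705) and Slc17a6 was (0.0359). For the difference of the genotype effect between the sets, edgeR called 0 of the 9 and 0% of tested genes, and 0 of the 9 had an unadjusted p under 0.05 (2.48% of tested genes).

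The balance of the transporters restates the separation of Slc17a6 and Slc17a7, which lay on opposite sides, and is not a further result. Per length, Slc17a6 stood at 14.3%, 6.54% and 7.76% of Slc17a7 in WT replicates 1 to 3 and at 14.6%, 8.15% and 10.2% in KO replicates 1 to 3. The 3 libraries with cerebellar transcripts held the 3 highest ratios, and the genotypes overlapped. Gabra6, by which the libraries were split, is among the 10 granule cell genes. The 10 summed to 817.6, 149.0 and 142.1 CPM in WT and 927.5, 219.2 and 395.2 CPM in KO. The part of these differences in the levels of the 9 genes was not tested beyond the fits with the cerebellar term.

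**Figure D4:**
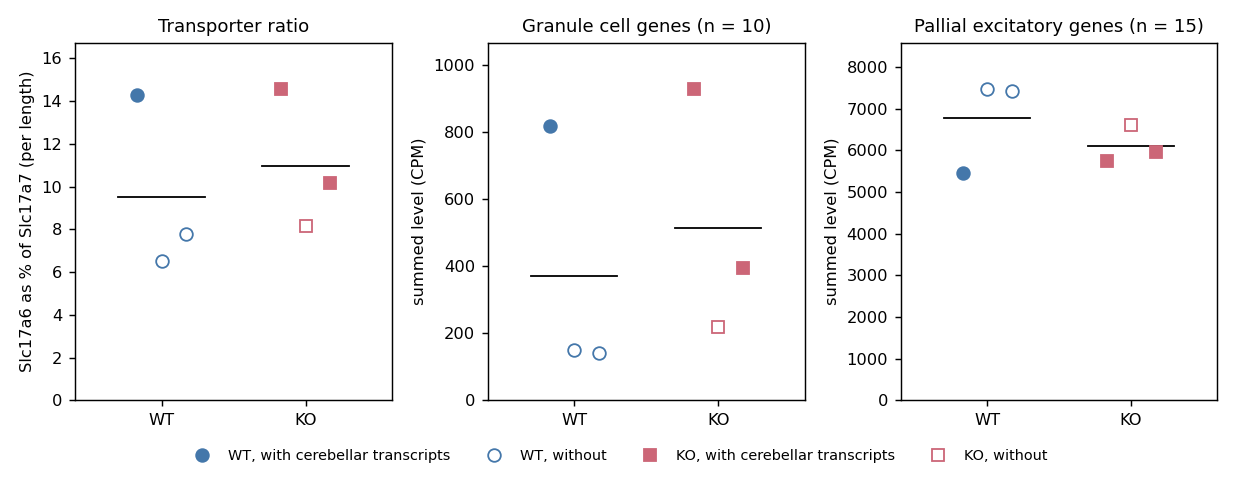
Slc17a6 as a percentage of Slc17a7 per length (left), and the summed CPM of 10 granule cell genes (middle) and of 15 pallial excitatory genes (right), for each library, with group means as lines; filled points are libraries with cerebellar transcripts. The filled points hold the 3 highest ratios (10.2% to 14.6%) and the 3 lowest sums of pallial genes (5452 to 5968 CPM). The place of the filled points among the ratios follows from the levels of the transporter genes. The granule cell sum includes Gabra6, by which the libraries were split.

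The promoters of the transporter genes are shown because these genes stood on opposite sides of that separation. RefSeq start sites (GRCm38.p6) gave 12 windows of 250 bases upstream for the 9 genes, all 9 of which were matched. The first is that of Slc17a7 (chr7:45163671-45163920, plus strand), with 61.2% G and C. The second is the outer start of Slc17a6 (chr7:51621580-51621829, plus strand), with 53.2%, and the third its inner start (chr7:51624387-51624636, plus strand), with 41.2%. Capitals mark CAGATG, an E-box variant that NeuroD factors bind.
Slc17a7: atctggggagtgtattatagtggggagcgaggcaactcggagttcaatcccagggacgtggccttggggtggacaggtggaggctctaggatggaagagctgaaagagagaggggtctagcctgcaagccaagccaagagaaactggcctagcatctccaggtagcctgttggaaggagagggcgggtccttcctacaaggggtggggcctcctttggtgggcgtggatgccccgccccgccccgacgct
Slc17a6 outer: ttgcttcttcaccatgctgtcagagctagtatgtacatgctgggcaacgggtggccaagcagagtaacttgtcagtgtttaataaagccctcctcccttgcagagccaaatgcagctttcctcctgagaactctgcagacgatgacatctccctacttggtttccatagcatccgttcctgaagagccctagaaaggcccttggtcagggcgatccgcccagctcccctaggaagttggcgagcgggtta
Slc17a6 inner: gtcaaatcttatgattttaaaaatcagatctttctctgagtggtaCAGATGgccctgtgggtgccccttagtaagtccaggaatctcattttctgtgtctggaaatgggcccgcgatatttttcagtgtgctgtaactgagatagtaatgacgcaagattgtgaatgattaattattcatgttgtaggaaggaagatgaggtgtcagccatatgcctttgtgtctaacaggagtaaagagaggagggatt
CAGATG, searched on both strands, was present once in the inner window of Slc17a6 and in neither other window. Of all 12 windows 3 held it, those of Slc17a6, Neurod2 and Cux2, against 14.4% of the 32851 RefSeq windows of the same length. CAGCTG was found in 0 of the 12 (13.0% of all windows) and TCACACCT, a T-box sequence, in 0 of the 12 (1.12%). A match is a description of the sequence only.

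Among relatives of the 9 genes, none of the 10 tested of 11 listed (Tbx21 did not pass the filter) was called by edgeR, DESeq2 or limma-voom for genotype, and 3 had an unadjusted p under 0.05. Cux1, the relative of Cux2, stood at 80.6, 65.8 and 67.7 CPM in WT and 77.0, 63.3 and 74.4 CPM in KO. It did not separate the genotypes (log2 fold change 0.00, SE 0.111) but was higher in each library with cerebellar transcripts. Bcl11a, the relative of Bcl11b, ran lower in those libraries, at 101.4 to 109.4 CPM against 123.8 to 139.0 CPM. Neurod1, a granule cell factor, went the other way from Neurod6, at 113.9, 130.7 and 52.0 CPM with cerebellar transcripts and 18.7, 20.4 and 14.2 CPM without (log2 fold change 2.61, edgeR adjusted p 0.000584). Rora, a receptor gene of thalamus and cerebellum, was called in the same direction (0.74, edgeR adjusted p 0.0250). The libraries were split by Gabra6, a cerebellar gene too, so the values of Neurod1 and Rora are not further results.

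Eomes, a T-box gene of cortical progenitors, olfactory bulb output neurons and a cerebellar interneuron, was low throughout. It stood at 6.56, 2.298 and 1.20 CPM in WT and 10.5, 9.58 and 5.97 CPM in KO. The groups overlapped through WT replicate 1. Its log2 fold change was 1.37 (SE 0.469, edgeR adjusted p 0.328), and it was called with the replicate block (1.54, edgeR adjusted p 0.00111). Fezf1 (1.596, SE 0.569) had a WT mean under 0.5 CPM, and its KO values lay above those of WT without reaching the threshold (edgeR adjusted p 0.361). Slc17a8, the third vesicular glutamate transporter gene, was at 3.31 to 9.24 CPM in WT and 5.46 to 10.1 CPM in KO. Neurog2 (-0.38) and Neurod4 (0.09) were near 1 CPM in both groups.

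Of 15 genes of pallial excitatory neurons in general, all had negative values in KO and none was called by edgeR (3 with an unadjusted p under 0.05) or limma-voom. Of all 16592 tested genes, 7913 had a negative value in KO. DESeq2 called 1 of them and the replicate block 1. The list median was -0.12, beside 0.01 for all tested genes. Mef2c (-0.31), a transcription factor gene, and Sv2b (-0.27), a synaptic vesicle gene, were below WT in every KO library but were not called. The 15 genes were all lower on average in the libraries with cerebellar transcripts as well, with 6 of them not overlapping and a median of -0.19. Over all 16592 tested genes, 8375 had a negative value there, and 5.97% were lower without overlap.

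Lists of layer genes did not follow Cux2 as a group. Of 16 upper-layer genes, edgeR, DESeq2 and limma-voom called 0 and 2 had an unadjusted p under 0.05, with 11 negative values and a median of -0.07. Rspo1 (0.76), a secreted Wnt co-activator, had the smallest p, and Plxnd1 (-0.30), a semaphorin receptor gene, and Pou3f3 (-0.19), a POU factor gene, followed. Rspo1 was low, at 2.50 to 6.24 CPM over the libraries. Without overlap, 2 of the 16 were lower in KO, Pou3f3 among them, and 1 was higher. Over all tested genes, 7.99% were lower in KO without overlap. Of 17 deep-layer genes, the same tools called 0 and 2 had an unadjusted p under 0.05, with 6 negative values and a median of 0.09. The 2 were Pcp4, higher in KO, and Nr4a2, a nuclear receptor gene, lower. Nr4a2 stood at 35.1, 56.1 and 43.7 CPM in WT and 34.4, 38.4 and 29.2 CPM in KO. Its groups overlapped, its log2 fold change was -0.40 (edgeR adjusted p 0.453, and 0.0704 by block), and it was lower in each library with cerebellar transcripts. With the replicate block 2 of the 17 deep-layer genes were called higher, beside 171 of all 16592 tested genes. These were Pcp4, a calmodulin-binding peptide gene (376.3 to 394.0 CPM in WT and 435.4 to 557.5 in KO, edgeR adjusted p 0.0327), and Nxph4, a neurexin ligand gene (edgeR adjusted p 0.00442). Nxph4 was also higher in each library with cerebellar transcripts, and Pcp4 is abundant in striatum and Purkinje cells.

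**Figure D5:**
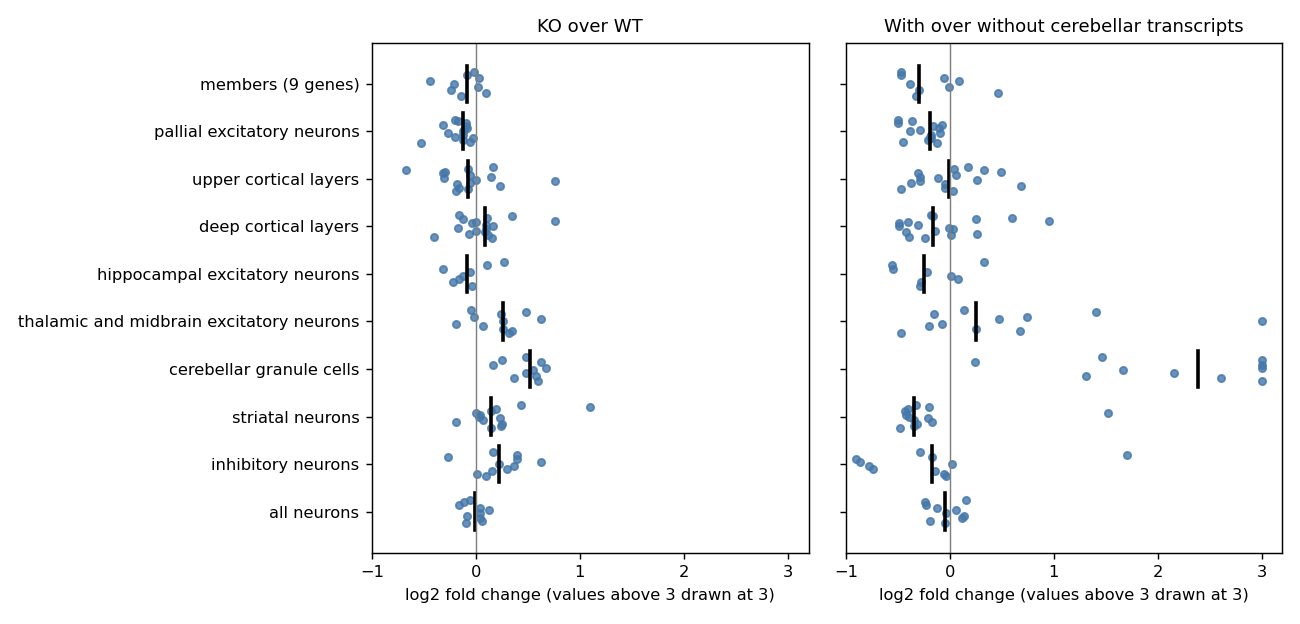
Log2 fold changes (horizontal axes) of single genes as points and list medians as bars, for the 9 genes and 9 lists, for KO over WT at the left and for libraries with over without cerebellar transcripts at the right. All 15 pallial excitatory genes lie below 0 in both panels, and the granule cell genes lie highest at the right, with a median of 2.38. The libraries were split by Gabra6, itself a granule cell gene of that list, so that place is not a further result.

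Other neuron lists, given for comparison, gave few calls by genotype. Of 10 genes of all neurons, 0 were called by edgeR, DESeq2 or limma-voom and 0 had an unadjusted p under 0.05 (median -0.01). Of 8 hippocampal genes the counts were also 0, with a median of -0.09. The 11 thalamic and midbrain genes had a median of 0.26, with 0 called by edgeR, 1 at an unadjusted p under 0.05 and 1 called by DESeq2 and by the replicate block, in both Calb2, a calcium-binding protein gene (0.63). For 13 striatal and 11 inhibitory neuron genes edgeR, DESeq2 and limma-voom called 0, with 2 and 1 at an unadjusted p under 0.05 and medians of 0.15 and 0.22. The replicate block called 1 striatal gene higher, Isl1, and 0 inhibitory genes, beside 171 of all 16592 tested genes called higher. Isl1, a homeobox gene, stood at 2.81, 2.70 and 3.31 CPM in WT and 3.65, 7.12 and 8.13 CPM in KO (edgeR adjusted p 0.0174 with the block). The striatal genes summed to 1287 CPM in KO replicate 2, above the 838.9 to 1051 CPM of the other 5 libraries, and that library also had the highest Bcl11b. Between libraries with and without cerebellar transcripts, 6 of the 13 striatal genes were lower without overlap (median -0.34), beside 5 of the 9 cortical genes (median -0.29). Of all tested genes, 5.97% were lower without overlap.

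Genes whose levels were most like the mean of the 9 over the 6 libraries were sought by the root mean square difference of centred log2 CPM, among the 12480 genes averaging 5 CPM or more. Amigo1 (0.0216), Ints10 (0.0226), Susd4 (0.0226), Arhgap39 (0.0257) and Tmem68 (0.0270) were the nearest. For Slc17a6 the nearest were Glce (0.0300), Igsf10 (0.0463) and Inadl (0.0613).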

How the data were processed

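RNA was extracted with Trizol and sequenced as TruSeq mRNA libraries with paired 150-base reads, per the labels' protocols. The submitters' processing notes list the build mm10 and, as tools, DESeq2, featureCounts 1.5.0, STAR 2.3.0e, Trimmomatic 0.32 and FastQC 0.11.2. The strand setting was not given in the sources used here. The authors deposited whole-number counts per gene symbol over exons, and a table of normalized signal, which equalled the deposited count divided by 1 factor per library (to a relative deviation of 5.11e-15).

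The counts of 16592 genes that passed filterByExpr were scaled with TMM factors and tested with edgeR 4.0.16 (quasi-likelihood, 4 residual degrees of freedom, R 4.3.3) with Benjamini-Hochberg adjustment over all of them. DESeq2 1.42.0 and limma 3.58.1 served as alternatives. CPM values use TMM-scaled totals, and RPKM values also the union of GENCODE M21 exons. SE is the fold change over the root of F. The fit was also run on counts simulated with known fold changes, whose recovery is not reported here. Libraries above 5 CPM of Gabra6 were those with cerebellar transcripts.

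Same-numbered WT and KO libraries correlated at 0.351, 0.334 and 0.177 in their deviations from group means, each above 0.1, so the numbers were taken as pairs; this comes from the data, not the labels. Pairs 1 and 2 match in cerebellar transcripts and pair 3 does not. Correlations of differently numbered libraries are not reported here. Whether shared cerebellar transcripts alone gave these values was not tested.

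The 9 genes and the marker lists were chosen with earlier results of these data known. The text names the 9 genes, their tested relatives, up to 3 genes of smallest p from each list, and the genes most like them. The lists of immature excitatory neurons, oligodendrocytes, astrocytes and meningeal fibroblasts had medians of 0.07, -2.65, -0.04 and 0.93, with 0, 8, 0 and 5 members called by edgeR and 2, 8, 1 and 6 at an unadjusted p under 0.05. Of the Hox genes 1 was tested, at 0.72, and not called. Of the granule cell genes, edgeR called 0 for genotype and 1 had an unadjusted p under 0.05 (median 0.52, DESeq2 1 called). With the block 4 of them were called higher, beside 171 of all 16592 tested genes. Some genes that this rule names are not reported here.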

Additional observations from a re-analysis of the deposited data

How the results depend on the processing

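Of the 9 genes, Cux2, Neurod6 and Tbr1 kept a negative value under every alternative run. The count of members called was 0 as reported, beside 1.2% of all tested genes. The count was 1 with DESeq2 (1.89% of genes with an adjusted p) and with the replicate block (3.41% of tested genes). With the cerebellar term and replicate block it was also 1 (535 of all 16592 genes tested). It was 2 with length-adjusted offsets and replicate block (473 of 15255), and 0 to 1 on leaving out 1 library. The 1 was without KO replicate 1 (305 of 16829). Fits with a lone sample in 1 group are left out of these counts. Added to the fit as reported, the replicate block changed the call of Cux2 and of no other of the 9; added to length-adjusted offsets it changed those of Cux2 and Neurod6.

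The count of all genes called was 199, and 315 with DESeq2, 566 with the replicate block, 535 with cerebellar term and replicate block, 1254 in the libraries without cerebellar transcripts, 129 with a term for sex (Xist above 5 CPM) and 473 with length-adjusted offsets and replicate block. It was 100 to 305 on leaving out 1 library. Between libraries with and without cerebellar transcripts it was 121, and 1 (without WT replicate 1) to 799 (without KO replicate 3) on leaving out 1 library, an alternative added after seeing the data. The cause of these shifts was not tested. The interaction gave 0 under each alternative run.

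Values near 0 changed sign in 31 of 198 fits of single members, none of them called. In the libraries with cerebellar transcripts the log2 fold changes were 0.10 for Slc17a7, -0.13 for Slc17a6, -0.12 for Neurod2, 0.23 for Fezf2 and 0.0413 for Bcl11b. In those without, they were -0.0211 for Rorb and 0.20 for Bcl11b. With the cerebellar term they were -0.0462 for Slc17a6, 0.0861 for Fezf2 and 0.124 for Bcl11b, and 0.1103 for Bcl11b with the replicate block too. Length-adjusted offsets gave -0.0236 for Neurod2 and 0.0299 for Bcl11b, and with the replicate block -0.0284 and 0.0219. The sex term gave -0.0362 for Neurod2, and upper quartile factors and library totals only gave 0.00513 and 0.0106 for Bcl11b. On leaving out 1 library the values ran from -0.0360 to 0.298 for Slc17a6, from -0.0423 to 0.103 for Neurod2, from -0.0150 to 0.0756 for Rorb, from -0.27 to 0.10 for Fezf2 and from -0.226 to 0.0713 for Bcl11b.

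Genes of the 9 had at least 457 counts in every library, and the spread between libraries limits these comparisons.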
